A study of Mus musculus with 24 samples.

Results

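Leukocyte adhesion was examined in mouse choroid through 9 genes, namely Madcam1, Icam1, Icam2, Vcam1, Sele, Selp, Selplg, Itgb2 and Itgam, out of 56065 genes in the deposited table. The group was put together because Madcam1 was higher after laser treatment in Ceacam1-/- mice, so the laser values of Ceacam1-/- mice are given for all 9 genes as a description, without a test. All 9 genes were found by their mouse symbols, and all 9 reached the mean normalized count of 10 that was required for testing, as did 19950 of all genes. The 24 libraries of choroidal tissue comprised 4 wild type and 4 Ceacam1-/- libraries without laser and 9 wild type and 7 Ceacam1-/- libraries with laser. Laser eyes had received 6 burns from an Nd:YAG laser (150 mW, 200 µm, 100 ms per pulse) under ketamine and xylazine, a procedure used to start choroidal neovascularization. The mice were on a C57BL/6J background and, unless stated otherwise by the study, 6 to 8 weeks old. Ceacam1-/- mice lacked exons 1 and 2 of Ceacam1 in every cell, and the wild type mice were their littermates. The interval between laser and tissue collection and the sex of each mouse are not given in the sources used here. Nor is the number of mice behind each laser library, so p-values measure the spread between libraries.

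Leukocytes leave the blood in steps. Selectins on the vessel wall (Sele, Selp) catch glycoproteins such as the product of Selplg on passing cells, and leukocyte integrins then hold on to immunoglobulin-type ligands of the endothelium. The β2 integrins, whose common chain is encoded by Itgb2 and one of whose α chains is encoded by Itgam, bind the products of Icam1 and Icam2. The integrins that contain the α4 chain bind VCAM-1 and MAdCAM-1. MAdCAM-1 is best known from venules of the gut and of its lymphoid tissue, where it receives lymphocytes that carry α4β7.

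Madcam1 (ENSMUSG00000020310) lies on chromosome 10 of GRCm39 from 79500209 to 79504371 on the plus strand, with 5 exons in its canonical transcript of 1.62 kb. Itgb2 (ENSMUSG00000000290) lies on the same chromosome from 77366086 to 77401542, also on the plus strand, with 16 exons. Sele (ENSMUSG00000026582) and Selp (ENSMUSG00000026580) are near each other on chromosome 1, from 163867401 to 163886055 and from 163942833 to 163977595. The others are Icam1 on chromosome 9 (ENSMUSG00000037405, 20926672 to 20940113), Icam2 on chromosome 11 (ENSMUSG00000001029, 106263312 to 106278943), Vcam1 on chromosome 3 (ENSMUSG00000027962, 115903598 to 115923355), Selplg on chromosome 5 (ENSMUSG00000048163, 113956597 to 113970705) and Itgam on chromosome 7 (ENSMUSG00000030786, 127661808 to 127717753).

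The 250 bases before the annotated start of the canonical transcript are printed for Madcam1 and Itgb2, the pair of genes whose laser libraries lay apart from the libraries without laser in both genotypes, and for Sele, whose promoter held 2 kinds of the motifs searched. They run 5′ to 3′ on the plus strand of GRCm39, at chr10:79499959-79500208 for Madcam1, chr10:77365836-77366085 for Itgb2 and chr1:163875523-163875772 for Sele, and end at the base before the start. Capitals mark matches to TATAAA and to TGANTCA, the AP-1 motif, on either strand.
Madcam1: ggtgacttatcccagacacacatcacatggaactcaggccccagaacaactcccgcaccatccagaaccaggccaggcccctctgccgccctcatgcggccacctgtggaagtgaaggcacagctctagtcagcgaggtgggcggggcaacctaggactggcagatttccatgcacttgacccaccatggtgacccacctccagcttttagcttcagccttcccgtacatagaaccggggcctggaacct
Itgb2: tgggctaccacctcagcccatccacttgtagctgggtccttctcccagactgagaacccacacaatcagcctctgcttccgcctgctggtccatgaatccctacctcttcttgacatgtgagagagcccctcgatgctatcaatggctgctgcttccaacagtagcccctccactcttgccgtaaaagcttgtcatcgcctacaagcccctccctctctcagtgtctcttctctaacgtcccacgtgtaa
Sele: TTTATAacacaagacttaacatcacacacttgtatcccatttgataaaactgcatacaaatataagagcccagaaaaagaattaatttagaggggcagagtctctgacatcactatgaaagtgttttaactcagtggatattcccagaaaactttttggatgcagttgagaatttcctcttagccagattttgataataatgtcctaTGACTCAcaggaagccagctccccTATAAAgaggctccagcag
Neither the Madcam1 nor the Itgb2 sequence held a match to any of the 4 motifs searched. In Sele, TATAAA ended 14 bases and TGACTCA 37 bases before the start. The AP-1 motif was found in 3 of the 9 promoters (Vcam1, Sele and Selp), against 6.17% of 21583 promoters of the same length. TATAAA was found in 1 of 9 (Sele) against 11.9% of all, the NF-kB consensus in 1 of 9 (Icam1) against 4.22%, and the PU.1 motif GAGGAAG in 1 of 9 (Itgam) against 10.3%. No matches of different motifs overlapped. A match is a run of letters and does not show binding.

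Libraries differed in how much tissue other than choroid they held. Summed over 7 rod photoreceptor markers, 5 libraries exceeded 500000 normalized counts. They were Ceacam1-/- laser libraries 14 (929456), 15 (528783) and 18 (990102), wild type library 21 without laser (526158) and Ceacam1-/- library 23 without laser (572814). These 5 are called rod-rich, and the differences of the 9 genes are given with and without them. Skeletal muscle markers, led by Acta1, summed to between 10083 and 788531 over the 24 libraries, and markers of surface epithelium to between 790 and 328523. The latter exceeded 30000 in 5 libraries, called epithelium-rich, which were wild type libraries 22 (266509) and 27 (37174) and Ceacam1-/- library 28 (287660) without laser, wild type laser library 19 (128870) and Ceacam1-/- laser library 15 (328523). Fits without them kept libraries 21 and 26 alone of the wild type group without laser, so they hold less information on laser in wild type mice. The 10 markers of endothelial cells, which carry the vessel-wall ligands, were all above 0 in every library and summed to between 9562 and 52130, with Plvap the most abundant in 22 of the 24.

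Ceacam1 itself was lower in the libraries labelled Ceacam1-/-, without separating the genotypes completely. Its normalized count was between 958 and 5027 in the 4 wild type libraries without laser (median 2919) and between 405 and 1171 in the 4 Ceacam1-/- libraries without laser (median 506). After laser it was between 774 and 8367 in wild type (median 996) and between 67.8 and 905 in Ceacam1-/- mice (median 335). The highest Ceacam1-/- library lay above the lowest wild type library in both conditions. The highest values of each group were those of libraries rich in surface epithelium, namely wild type libraries 22 and 27 and Ceacam1-/- library 28 without laser, and libraries 19 and 15 with laser. The log2 difference between genotypes was −1.95 (SE 0.60) without laser and −2.17 (SE 0.52) with laser, and neither passed the test (limma with Benjamini-Hochberg adjustment, adjusted p = 0.999 and 0.104). Without those 5 libraries the differences were −1.21 (SE 0.31) and −2.11 (SE 0.36), with adjusted p = 1 and 0.06 (limma). Reads of exons that the deletion leaves in place are counted in the same value.

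The stated reason for the choice of genes names the laser comparison in Ceacam1-/- mice and not that in wild type mice, but the genes were chosen with earlier results of both known. Madcam1 reached the mean required for testing through the laser libraries alone, so its values are given with no test and it is left out of the counts. The counts and differences that follow are those of laser in wild type mice. Of the 8 genes other than Madcam1, 4 rose with laser (Itgb2, Itgam, Selplg and Vcam1) and 0 fell, where 4.23% of the 19950 genes tested rose and 1.05% fell (limma, adjusted p under 0.05). For 5 of the 8 (these 4 and Selp), all laser libraries lay above all libraries without laser, as they did for 4.5% of all genes. The median log2 difference of the 8 was 1.81, and that of all genes −0.10. Without the 5 rod-rich libraries 7 of the 8 rose, where 5.76% of all genes did. The differences were then 3.60 for Madcam1, 3.09 for Itgb2, 1.82 for Itgam, 2.04 for Selplg, 1.68 for Vcam1, 1.75 for Sele, 1.53 for Selp, 0.78 for Icam1 and 0.44 for Icam2, which did not pass. Except for Vcam1 and Selplg, they were smaller than over all 24 libraries. Of the rod-rich libraries only library 21 is wild type, and limma took the spread from all 4 groups. The cause of the added calls was not tested. Without the 5 epithelium-rich libraries 3 of the 8 rose, where 2.41% of all genes did, and Vcam1, at 1.2 (SE 0.53), did not pass (limma, adjusted p = 0.331). Libraries 21 and 26 alone then remained of the wild type group without laser. The part of this smaller group in the lost call was not tested. In bulk tissue, more cells of a type and more RNA per cell cannot be told apart.

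Madcam1 was close to the lower limit of measurement without laser. Its normalized counts were 1.27, 1.21, 6.89 and 4.97 in the 4 wild type libraries. With laser the 9 wild type libraries held between 42.7 and 74.7 (median 56.7). The lowest laser library thus lay well above the highest library without laser. The means were 57.4 ± 13.5 (SD, n = 9) and 3.59 ± 2.82 (SD, n = 4), a 16-fold ratio. On the scale of log2(normalized count + 1) the difference was 3.86 (SE 0.40). With a pseudocount of 10 the difference was 2.31, because the level without laser lies below that pseudocount.

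Ceacam1-/- mice, on whose values the gene was chosen, had 2.21, 1.36, 3.94 and 1.64 normalized counts of Madcam1 in the 4 libraries without laser. The 7 laser libraries held 44.4, 59.8, 82.5, 33.2, 35.1, 27.4 and 17.9. The 3 rod-rich laser libraries held the last 3 of these values, and all 7 lay above the 4 libraries without laser. The log2 difference was 3.65 (SE 0.42), and 4.08 (SE 0.47) without the 5 rod-rich libraries. The difference between the laser effects of the genotypes was −0.21 (SE 0.58) and turned to 0.48 (SE 0.62) without the rod-rich libraries.

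**Figure D1:**
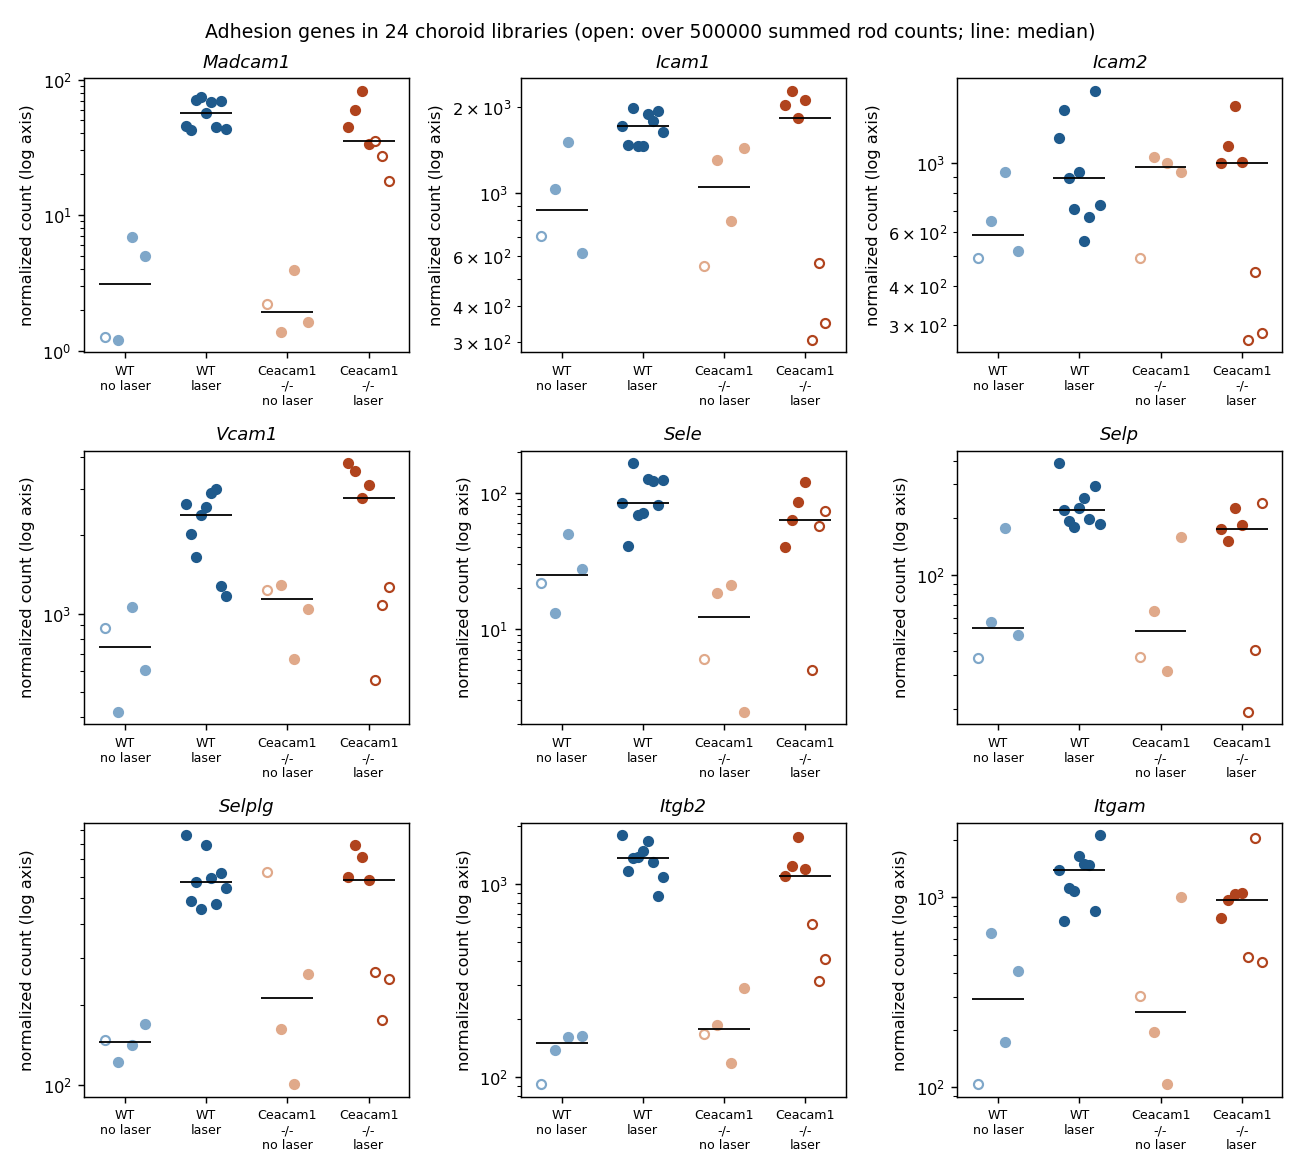
Normalized counts (log axis) of the 9 adhesion genes in each of the 24 libraries, in 4 groups by genotype and laser, with a line at the group median and open symbols for the 5 rod-rich libraries. Madcam1 and Itgb2 separate laser from no laser in both genotypes, while the Icam2 groups overlap.

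The other ligands of the immunoglobulin family are Vcam1, Icam1 and Icam2. Vcam1, which encodes the ligand of α4β1, was measured at 881, 419, 1059 and 609 normalized counts in the wild type libraries without laser. With laser it ranged from 1166 to 2999 (median 2398), above all 4 of them. The log2 difference was 1.57 (SE 0.41), which passed the test (limma, adjusted p = 0.0251). That call was lost when wild type library 21, 22 or 27 without laser was left out (adjusted p = 0.0553, 0.113 and 0.0924).

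Vcam1 in Ceacam1-/- mice was at 1230, 1288, 671 and 1039 without laser and between 556 and 3783 with laser (median 2787). The 4 laser libraries that were not rod-rich held 2787 to 3783, more than any library without laser, whereas the rod-rich ones held 556, 1074 and 1260. Laser and no laser differed by 0.88 on the log2 scale (SE 0.43), and 1.76 (SE 0.34) without the 5 rod-rich libraries.

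Icam1, a ligand of the β2 integrins that inflammatory cytokines induce, was at 707, 1027, 1510 and 614 in wild type libraries without laser and between 1456 and 1975 with laser (median 1714). Only library 26 without laser (1510) reached into the laser range. The ratio of the means was 1.76, and the log2 difference of 0.90 (SE 0.45, 95% interval −0.03 to 1.83) did not pass the test (limma, adjusted p = 0.268). Fitted on the 13 wild type libraries alone, the same difference had an adjusted p of 0.00832 with limma. Without the 5 rod-rich libraries the difference was 0.78 (limma, adjusted p = 0.025).

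Icam1 in Ceacam1-/- mice was at 553, 1299, 796 and 1431 without laser. The 4 laser libraries that were not rod-rich held 1830 to 2273, and the rod-rich libraries 14, 15 and 18 held 305, 568 and 349. The laser group therefore fell into a high set, above all 4 libraries without laser, and a low set, of which library 15 lay just above the lowest library without laser. Over all 7 the difference on the log2 scale was 0.09 (SE 0.47), and 0.85 (SE 0.24) without the 5 rod-rich libraries.

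Icam2, which endothelium carries without stimulation, was at 494, 651, 935 and 520 in wild type libraries without laser and between 560 and 1711 with laser (median 893). The groups overlapped widely, and the log2 difference was 0.56 (SE 0.40, 95% interval −0.27 to 1.39; limma, adjusted p = 0.448). The Ceacam1-/- libraries held 493, 1047, 1003 and 933 without laser, and between 269 and 1531 with laser (median 998). The log2 difference there was −0.32 (SE 0.42), and 0.21 (SE 0.32) without the 5 rod-rich libraries. Of the 9 genes, Icam2 had the smallest difference with laser in wild type mice.

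Both endothelial selectins were low. Sele encodes E-selectin, which is made by activated endothelium. It was at 22, 13.2, 49.9 and 27.6 normalized counts in wild type libraries without laser and between 40.8 and 166 with laser (median 84.0). Only laser library 2 (40.8) lay below the highest library without laser. The log2 difference of 1.82 (SE 0.61) did not pass the test (limma, adjusted p = 0.0844). Without the 5 rod-rich libraries the difference was 1.75 (limma, adjusted p = 0.0482).

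Ceacam1-/- libraries without laser held 6.07, 18.4, 21 and 2.46 normalized counts of Sele, and those with laser between 4.99 and 120 (median 62.9). Library 14, which was rod-rich, was the lowest of the laser group, and the other 6 held at least 40.2. Laser and no laser differed by 2.29 on the log2 scale (SE 0.63), and 2.67 (SE 0.61) without the 5 rod-rich libraries.

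Selp encodes P-selectin, which endothelium and platelets store and release. It was at 36.7, 56.9, 177 and 48.7 in wild type libraries without laser and between 180 and 388 with laser (median 221). The groups did not overlap, although library 26 without laser (177) came within a few counts of the lowest laser library. The log2 difference of 1.80 (SE 0.56) missed the threshold (limma, adjusted p = 0.0596). It passed when library 26 was left out (limma, adjusted p = 0.0258), and without the 5 rod-rich libraries (difference 1.53, adjusted p = 0.0208). Pf4 was the most abundant platelet marker in 23 of the 24 libraries, and 1 of the 3 platelet markers tested rose in wild type mice, where 4.23% of all genes did. The part of platelet RNA in the Selp values was not tested.

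Selp in Ceacam1-/- mice was at 37.4, 64.7, 31.5 and 160 without laser, and between 19.2 and 241 with laser (median 174). Rod-rich laser libraries 14 and 15 held 19.2 and 40.4, and rod-rich library 18 held the highest value. The log2 difference was 0.90 (SE 0.58), and 1.39 (SE 0.46) without the 5 rod-rich libraries.

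The 3 genes of the leukocyte side all rose with laser in wild type mice. Itgb2, the chain common to the β2 integrins, was at 91.6, 139, 161 and 163 in wild type libraries without laser and between 868 and 1785 with laser (median 1356). The groups were far apart, with a 9.70-fold ratio of means and a log2 difference of 3.27 (SE 0.35, 95% interval 2.56 to 3.99; limma, adjusted p = 2.57e-06). The Ceacam1-/- libraries had 168, 186, 118 and 289 without laser, and 1105, 1245, 1745, 1189, 618, 315 and 408 with laser. The rod-rich laser libraries held the 3 lowest values, and library 15 (315) lay just above the highest library without laser. The log2 difference was 2.16 (SE 0.36), and 2.81 (SE 0.27) without the 5 rod-rich libraries. Beside Madcam1, which was chosen on these values, Itgb2 was the only one of the 9 genes whose Ceacam1-/- groups did not overlap with laser higher. The share of all genes was 1.17%, and nothing is read from it, since the choice used this comparison.

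Itgam, the α chain of Mac-1, varied more between libraries than Itgb2, and was highest in libraries rich in surface epithelium. It was at 104, 648, 174 and 408 in wild type libraries without laser and between 754 and 2119 with laser (median 1386). The groups did not overlap, and the log2 difference of 2.26 (SE 0.49) passed the test (limma, adjusted p = 0.00661). The call was lost without wild type library 21 (adjusted p = 0.0612). Epithelium-rich libraries 22 and 27 held the 648 and 408, and library 19 the 2119. Without the 5 epithelium-rich libraries the difference was 3.13 (SE 0.40; limma, adjusted p = 0.000162). Its values in Ceacam1-/- mice were 302, 195, 104 and 1007 without laser and between 458 and 2044 with laser (median 962), with a log2 difference of 1.63 (SE 0.51), of 1.79 (SE 0.55) without the 5 rod-rich libraries and of 2.03 (SE 0.35) without the 5 epithelium-rich ones. Epithelium-rich libraries 28 and 15 held the 1007 and the 2044, and rod-rich laser libraries 14 and 18 the lowest laser values (486 and 458). Another protein-coding gene, Gm49368, overlaps Itgam on the same strand, with at most 134 normalized counts in a library, so the division of reads between this pair is uncertain.

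Selplg encodes PSGL-1, the selectin ligand of leukocytes. It was at 147, 121, 142 and 169 in wild type libraries without laser, the narrowest spread relative to the mean of the 9 genes in that group, and between 457 and 862 with laser (median 574). The groups were apart, and the log2 difference of 2.03 (SE 0.39) passed the test (limma, adjusted p = 0.00255). Ceacam1-/- library 23 without laser held 627, against 163, 101 and 261 in the others, and laser libraries ranged from 175 to 792 (median 585). The log2 difference there was 0.88 (SE 0.41), and 2.03 (SE 0.27) without the rod-rich libraries, of which library 23 is one.

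**Figure D2:**
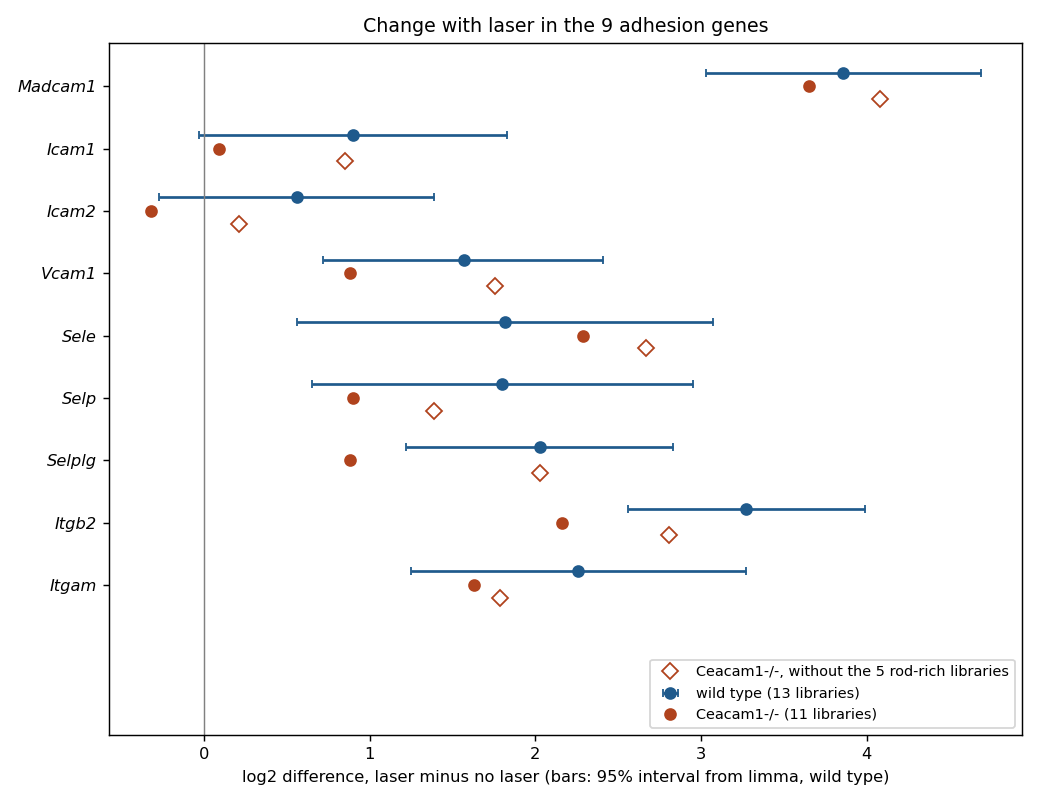
Log2 difference between laser and no laser for the 9 genes in wild type mice (13 libraries) and in Ceacam1-/- mice (11 libraries), with 95% intervals from limma for wild type mice alone, and in Ceacam1-/- mice without the 5 rod-rich libraries (diamonds). In wild type mice the difference ranges from 0.56 for Icam2, whose interval includes 0, to 3.86 for Madcam1, which was given no test.

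The order of the levels can be compared between genes only per length of transcript. Per kb of canonical transcript, the mean in wild type laser libraries was 627 ± 198 for Vcam1 and 541 ± 66.0 for Icam1, followed by Itgb2 (452 ± 95.9), Itgam (354 ± 113), Selplg (322 ± 75.0) and Icam2 (153 ± 61.3; SD, n = 9 for each). Selp (69.1 ± 19.6), Madcam1 (35.5 ± 8.34) and Sele (26.3 ± 10.4) were the lowest. Vcam1 and Icam1, Icam1 and Itgb2, Itgb2 and Itgam, Itgam and Selplg, and Madcam1 and Sele differed by less than the larger SD of each pair. Without laser the wild type order was Icam1 (307 ± 129), Vcam1 (213 ± 81.6), Icam2 (101 ± 31.3), Itgam (89.0 ± 65.9), Selplg (77.4 ± 10.4), Itgb2 (46.6 ± 11.2), Selp (23.2 ± 19), Sele (7.51 ± 4.17) and Madcam1 (2.21 ± 1.74; SD, n = 4 for each). Madcam1 was thus the least abundant of the 9 without laser, and after laser its level was of the same order as those of the endothelial selectins.

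None of the comparisons between genotypes gave a call among the other 8 genes. For the interaction of laser and genotype, limma called 0 of 19950 genes (0%; 1241 genes had an unadjusted p under 0.05). The largest interactions among the 8 were −1.15 (SE 0.56) for Selplg and −1.12 (SE 0.50) for Itgb2, each with an adjusted p of 0.640 (limma). Without the rod-rich libraries they were 0.00 (SE 0.36) and −0.28 (SE 0.35), and those of Icam1 and Vcam1 turned from −0.81 and −0.68 to 0.07 and 0.09. Without laser, limma called 0 of 20057 genes (0%; 307 had an unadjusted p under 0.05), and the largest difference of the 8 between Ceacam1-/- and wild type was −1.38 (SE 0.74) for Sele (adjusted p = 0.999). Madcam1 was below the limit for testing there, with means of 2.29 ± 1.16 and 3.59 ± 2.82 (SD, n = 4 each). With laser, limma called 4 of 19757 genes (0.0202%). Of the 8, Selp had the largest difference, −1.04 (SE 0.45, adjusted p = 0.192), which was −0.34 (SE 0.21) without the rod-rich libraries, and that of Icam1 turned from −0.74 to 0.28 without the rod-rich libraries. For Madcam1 the difference with laser was −0.53 (SE 0.29), and −0.11 (SE 0.28) without the rod-rich libraries.

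The wider adhesion list of 52 other genes was described in the same way, and 48 of them were tested. With laser in wild type mice 9 rose and 0 fell, where 4.23% of all genes rose and 1.05% fell, with a median log2 difference of 0.60. Of 17 tested ligands and junction proteins of the vessel wall 0 rose and 0 fell, which is near those shares (median −0.07, against −0.10 for all genes). Of 12 tested selectin ligands and their enzymes 3 rose, and of 19 leukocyte integrins and their activators 6 rose (medians 0.47 and 0.89). The difference between these lists was not tested. In Ceacam1-/- mice 3 of the 48 rose and 0 fell, with 0 in the vessel-wall list, 1 among the selectin ligands and 2 among the integrins and activators, and the median of the 48 was 0.29, where 2.07% of all genes rose and 1.65% fell. These counts depended on the libraries. Without the 5 rod-rich libraries 14 of 47 rose in wild type mice, with 1 of 16 vessel-wall genes among them, where 5.76% of all genes rose. In Ceacam1-/- mice 16 of 47 rose, with 2 of 16, where 8.66% of all genes rose. Without the 5 epithelium-rich libraries 5 and 3 of the 48 rose in wild type and Ceacam1-/- mice, where 2.41% and 2.3% of all genes did.

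The 6 genes of lowest p were Itgax, Skap2, Fyb1, Itga5, Cd44 and Apbb1ip. Itgax, the α chain of another β2 integrin, was between 13.6 and 62.6 normalized counts in wild type libraries without laser and between 170 and 528 with laser. Its ranges did not overlap, and the log2 difference was 3.24 (SE 0.50; limma, adjusted p = 3e-04). Skap2 and Fyb1, adaptors of integrin signalling, differed by 1.64 (SE 0.26) and 1.86 (SE 0.39), with adjusted p = 0.000437 and 0.00565 (limma). Apbb1ip, the adaptor RIAM that brings talin to integrins, differed by 1.42 (SE 0.37; limma, adjusted p = 0.0248). Itga5, the α chain of a fibronectin receptor, and Cd44, the hyaluronan receptor, differed by 1.5 (SE 0.34) and 1.58 (SE 0.36; limma, adjusted p = 0.00855 and 0.00868). Cd44 was at 2907 in epithelium-rich library 22, the highest of the wild type libraries without laser. Without the 5 epithelium-rich libraries Itgax, Skap2 and Cd44 passed, and Fyb1, Itga5 and Apbb1ip did not (limma, adjusted p = 0.0725, 0.144 and 0.116). That fit held wild type libraries 21 and 26 alone without laser, and the part of the smaller group in the lost calls was not tested.

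The integrin chains that bind MAdCAM-1, encoded by Itga4 and Itgb7, were expressed and did not pass the test with laser in wild type mice. Itga4 was between 273 and 618 normalized counts without laser and between 358 and 721 with laser, so the ranges lay on each other (log2 difference 0.22, SE 0.28; limma, adjusted p = 0.675). In Ceacam1-/- mice it was between 240 and 552 without laser and between 527 and 1459 with laser, a difference of 1.08 (SE 0.29) that passed (limma, adjusted p = 0.0403), while the interaction of 0.86 (SE 0.40) did not (adjusted p = 0.640). The rod-rich laser libraries 14, 15 and 18 held the 3 highest values (1459, 817 and 1130), and rod-rich libraries 21 and 23 the highest of their groups without laser (618 and 552). Without these 5 the difference in Ceacam1-/- mice was 0.89 (SE 0.28; limma, adjusted p = 0.036), and without the epithelium-rich libraries 0.92 (SE 0.33; adjusted p = 0.143). Itgb7 was between 19.6 and 209 without laser and between 52.7 and 310 with laser in wild type mice (1.05, SE 0.56; limma, adjusted p = 0.299). Itgb1, the other partner of the α4 chain, differed by 0.88 (SE 0.36; adjusted p = 0.160) and Itgal, the α chain of LFA-1, by 1.92 (SE 0.60; limma, adjusted p = 0.0639). Without the 5 rod-rich libraries both passed, at 0.78 (SE 0.22; limma, adjusted p = 0.032) and 1.75 (SE 0.47; adjusted p = 0.0255), and Itga4 and Itgb7 did not (0.38 and 0.43; adjusted p = 0.379 and 0.656). Itgb1 and Itgal did not pass without the epithelium-rich libraries (1.01 and 1.55; limma, adjusted p = 0.413 and 0.418), where wild type libraries 21 and 26 alone remained without laser.

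Other relatives did not pass the test or were too low for it. Icam4 differed by −1.30 (SE 0.68) and Icam5 by −0.25 (SE 0.75), with adjusted p = 0.288 and 0.866 (limma). Glycam1, Chst4 and Fut7, which high endothelial venules use to make selectin ligands, and the integrin gene Itgad were under the limit for testing. Chst4 was above 0 in 1 of the 9 wild type laser libraries and listed at 0 in all 8 libraries without laser. Glycam1 reached at most 17.8 normalized counts in a wild type laser library and 4.84 in one without laser.

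**Figure D3:**
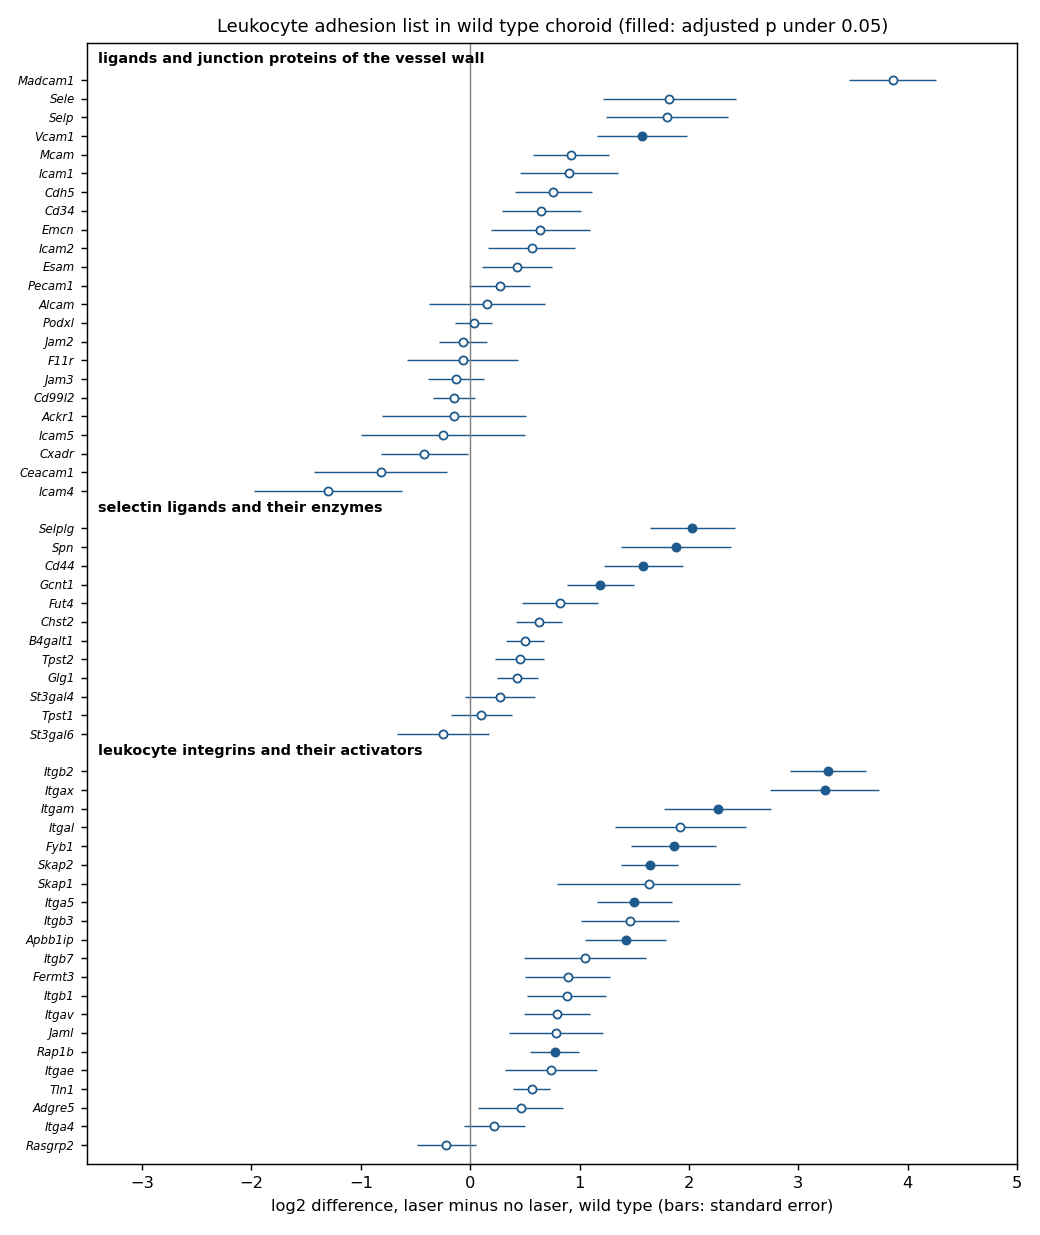
Log2 difference between laser and no laser in wild type mice (horizontal axis) for tested genes of the wider adhesion list, grouped by role, the 9 genes described here included and 1 gene not drawn, with bars for 1 standard error. Filled points passed the test, which 9 of the 48 genes outside the 9 did, where 4.23% of all genes rose. Madcam1, drawn open, was given no test.

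Markers of macrophages, monocytes and stroma differed between the same groups of libraries. In wild type mice 10 of 12 macrophage and microglia markers rose with laser and 0 fell, with a median log2 difference of 2.09. Of all genes 4.23% rose in wild type and 2.07% in Ceacam1-/- mice. Of the 6 markers of recruited monocytes, Chil3 and F10 reached the mean required for testing through the laser libraries alone (means of 6.07 and 4.55 over the 8 libraries without laser), and 3 of the other 4 rose. The most abundant of the monocyte markers in 22 of the 24 libraries was Fn1, fibronectin, which fibroblasts also make. The macrophage markers, led by Lyz2 in every library, summed to between 13001 and 26688 normalized counts without laser and between 61612 and 150547 with laser. In Ceacam1-/- mice 7 of the 12 and 3 of the 4 rose, and the sums were between 14162 and 20004 without laser and between 19755 and 109622 with laser. Rod-rich laser libraries 14, 15 and 18 had the lowest macrophage sums of that group (34368, 27793 and 19755). The endothelial markers gave 0 calls of 10 in each genotype, which is near those shares. Their medians were 0.45 and −0.15, where those of all genes were −0.10 and 0.02. Of the 5 neutrophil markers tested 1 rose. Of the 6 markers of fibroblasts and stroma, 2 rose in wild type and 1 in Ceacam1-/- mice (medians 1.26 and 1.36). Their wild type sums were between 84460 and 190472 without laser and between 198056 and 458580 with laser, without overlap. Lens markers gave 0 calls of 6 in wild type mice, with a median of 2.32. The lens sums there were between 234 and 16264 without laser and between 1788 and 16626 with laser. Rod markers gave 0 calls of 7, with a median of −1.44. Without the rod-rich libraries 11 of 12 macrophage markers rose in each genotype, and so did 4 of the 6 stromal markers in wild type and 6 in Ceacam1-/- mice. Of all genes 5.76% and 8.66% then rose in wild type and Ceacam1-/- mice, and 0 of 10 endothelial markers is near these shares. Without the epithelium-rich libraries 9 of 12 macrophage markers and 0 of 6 stromal markers rose in wild type mice. In Ceacam1-/- mice 6 of 12 and 1 of 6 then rose, where 2.41% and 2.3% of all genes rose in the 2 genotypes. The part of these cells in the differences of the 9 genes was not tested. The neutrophil genes Ly6g and Elane were listed at 0 in 22 of the 24 libraries. Of the lymphocyte markers, 0 of 8 for T and NK cells and 0 of 5 for B cells passed in either genotype, which is near the shares over all genes.

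Set against these sums, the 9 genes behaved in different ways. Per 10000 endothelial counts, Madcam1 was between 0.457 and 2.42 in wild type libraries without laser and between 9.71 and 22.2 with laser, and in Ceacam1-/- mice between 0.450 and 1.19 and between 8.97 and 36.7. Per 10000 macrophage counts it was between 0.740 and 2.77 and between 3.04 and 11.3 in wild type, and between 0.774 and 2.44 and between 4.31 and 10.2 in Ceacam1-/- mice. Madcam1 was therefore higher with laser against either sum, without overlap in either genotype, by log2 differences of 3.86 and 4.41 against the endothelial sum and 2.04 and 2.53 against the macrophage sum.

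Itgb2 kept a difference of 0.95 against the macrophage sum in wild type mice, without overlap, and of 0.50, with overlap, in Ceacam1-/- mice. Over all libraries Itgam and Selplg did not keep theirs. Against the macrophage sum the differences of Itgam were −0.07 and −0.03, and those of Selplg −0.30 and −0.78, in wild type and Ceacam1-/- mice. The highest Itgam ratio of each group was that of an epithelium-rich library. Per 10000 macrophage counts these were 397 and 504 without laser and 343 and 736 with laser, in wild type and Ceacam1-/- mice. Differences of the Itgam ratio without those libraries are not given. Icam2 followed the endothelial sum, with 247 to 255 per 10000 endothelial counts in wild type libraries without laser and 169 to 337 with laser (log2 difference 0.04), and a difference of −0.11 in Ceacam1-/- mice. Against the same sum Vcam1 was higher with laser by 1.05 and 1.1, Sele by 1.34 and 2.66 and Selp by 1.30 and 1.12 in wild type and Ceacam1-/- mice. The groups overlapped for these genes, except for Selp in wild type mice. Icam1 differed by 0.38 and 0.30 against the endothelial sum, with overlap, and by −1.43 and −1.58 against the macrophage sum, where all laser libraries lay below those without laser. Lyz2 held a larger part of the macrophage sum with laser. It made up 92490 of 150547 counts in wild type laser library 1. In wild type library 21 without laser it made up 5753 of 13001. The ratios against this sum therefore depend on Lyz2, and ratios against the other macrophage markers are not given. The part of a changed number of cells in these values was not tested, and no test was made of the ratios.

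**Figure D4:**
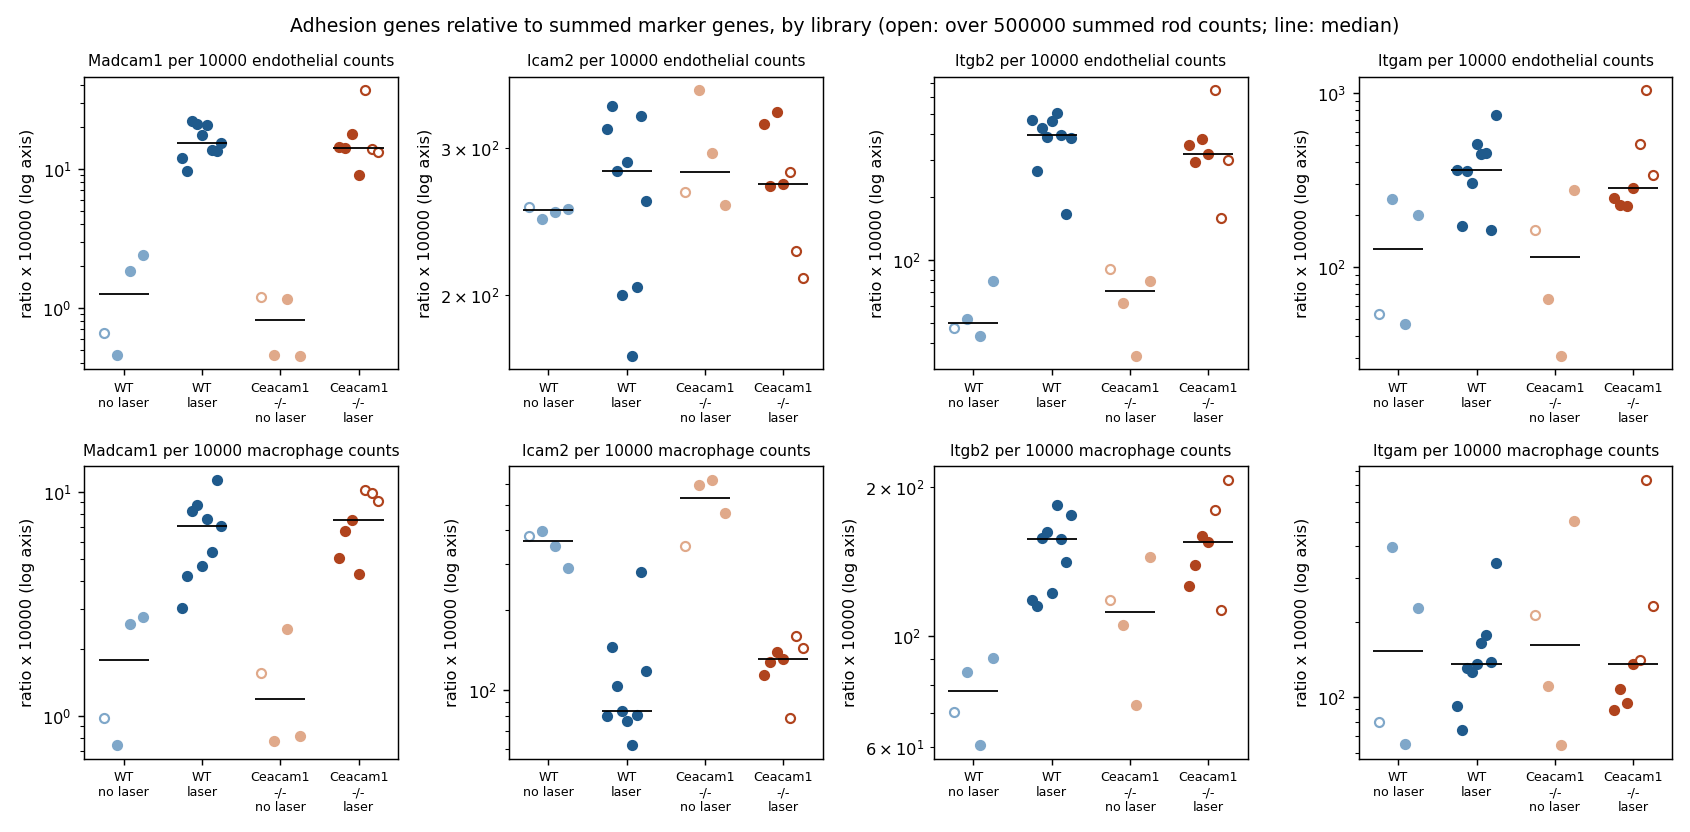
Madcam1, Icam2, Itgb2 and Itgam per 10000 summed normalized counts of 10 endothelial markers (upper row) and of 12 macrophage and microglia markers (lower row), log axes, 1 point per library, with open symbols for the 5 rod-rich libraries and lines at group medians. Madcam1 separates laser from no laser in both of its panels, whereas Icam2 stays level per endothelial count. Itgam overlaps per macrophage count, with the highest ratio of each group in an epithelium-rich library.

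The genes most like Madcam1 over the libraries were sought by the Pearson correlation of log2 values with each of 19949 other genes. These values are a description over libraries that share their laser label and their composition. F10 (coagulation factor X, r = 0.950), Spp1 (osteopontin, 0.950), Timp1 (an inhibitor of metalloproteinases, 0.946), F7 (coagulation factor VII, 0.944), Cd300lf (a receptor of myeloid cells, 0.943) and Fgr (a Src-family kinase of myeloid cells, 0.943) came first over the 24 libraries. Within the 16 laser libraries alone the same 6 genes had r of 0.612, 0.771, 0.486, 0.788, 0.740 and 0.598. F10, which is also on the list of recruited monocyte markers, was between 1.88 and 4.78 normalized counts in wild type libraries without laser and between 47.9 and 184 with laser. Spp1 was between 3120 and 10200 in wild type libraries without laser and between 69300 and 251000 in wild type libraries with laser.

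Among the other 8 adhesion genes, Itgb2 came 21st in this order (r = 0.926), and the next was Selplg at place 466 (0.753). Sele (561), Itgam (646), Vcam1 (813) and Selp (1203) followed, and Icam1 (2669, r = 0.439) and Icam2 (4744, r = 0.247) were far down. Within the laser libraries the r of Madcam1 with Icam1 was 0.698 and with Itgam 0.279, so the order of the members there was not that over all libraries. The pair with the highest r within laser libraries was Selplg and Itgb2 (0.899).

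Within 100 kb of Madcam1 on chromosome 10 there were 15 other genes, of which 11 were tested. With laser in wild type mice 0 of the 11 passed the test in either direction, which is near the shares over all genes (4.23% higher and 1.05% lower). Tpgs1, whose body starts just downstream of Madcam1, differed by 0.12 (SE 0.20; limma, adjusted p = 0.771). Cimap1d, on the other side, had means of 41.4 normalized counts without laser and 7.63 with laser in wild type mice, a log2 difference of −3.28 (SE 1.04) that missed the threshold (limma, adjusted p = 0.0673). In Ceacam1-/- mice its means were 71.4 and 3.03. The lncRNA gene Gm47163 and Shc2, which overlap on opposite strands, had higher means with laser in Ceacam1-/- mice (113 against 56.9 and 274 against 174, log2 differences 1.09 and 0.77), and differed by 0.36 (SE 0.41) and 0.01 (SE 0.24) in wild type mice. Bsg, the most abundant of these neighbours, was level in wild type mice (0.00, SE 0.27; limma, adjusted p = 0.998) and differed by −0.57 in Ceacam1-/- mice.

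**Figure D5:**
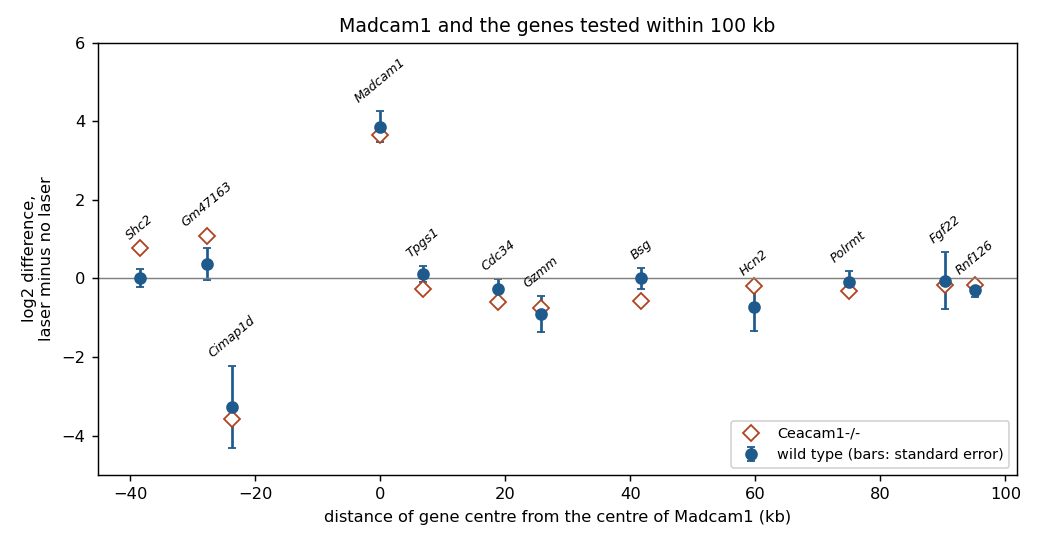
Log2 difference between laser and no laser in wild type and Ceacam1-/- mice for the tested genes within 100 kb of Madcam1, placed by the distance of their middle from that of Madcam1 in kb. Madcam1 stands at 3.86 and 3.65, and the lowest values, −3.28 and −3.59, are those of Cimap1d.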

How the data were processed

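Choroidal RNA was measured in 24 libraries, made by the authors with SMART-Seq from 10 ng of RNA (8 cycles for cDNA and 14 for the library) and sequenced as paired ends. The authors estimated reads with Salmon 1.10.3 on GRCm39, imported them with tximport and deposited normalized counts (a signal value per gene) from DESeq2 1.44.0, which correct for library size and transcript length. They also removed 1 outlier library, and over which libraries they normalized is not given in the sources used here. The values are not whole reads, since only 36.3% to 77.5% of the values under 5 reads were within 5% of a multiple of what 1 read is worth, so count models were not run. Values summed to between 23717571 and 28563124 per wild type laser library, 23704346 and 25940731 per Ceacam1-/- laser library, 23979741 and 27093809 per wild type library and 23819561 and 35094410 per Ceacam1-/- library without laser. Reads were not stated to be counted by strand, and genes on the opposite strand overlap Icam1, Icam2 (Prr29, at most 44 normalized counts in a library), Vcam1, Sele and Selp.

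Groups came from the sample labels. The 9 genes, the wider adhesion list and the marker lists were chosen with earlier results of these data known. The tests used limma 3.58.1 (R 4.3.3, variance trend) on log2(normalized count + 1), which understates changes of low genes. Genes with a mean of at least 10 entered, and p was adjusted by Benjamini-Hochberg over all genes tested with a threshold of 0.05. Laser and its interaction with genotype were fitted over 24 libraries (19950 genes), genotype over 8 (20057) and 16 (19757). The comparisons share libraries. Named from the adhesion list were the 6 genes of lowest p that rose with laser in wild type mice and the partners and relatives of the 9 genes, beside the 6 genes most like Madcam1 and its neighbours within 100 kb. Beside the 52 adhesion genes used, Cd99 matched no row and was left out. Some genes that the lists hold are not reported here. Positions and promoters were read from GRCm39 with GENCODE vM39, which matched 99.1% of identifiers. The method was tested on simulated data, where limma called 46 of 200 genes changed by a log2 difference of 1, 137 at 2 and 182 at 4 for laser in wild type mice. Tables and figures were made in Python 3.11.15 with pandas 2.3.3, numpy 2.4.6 and matplotlib 3.10.9. Other settings were a pseudocount of 0.5 or 10, a minimum mean of 50 or none, upper-quartile scaling, summed Y-linked genes as a covariate, array weights, other libraries fitted together, each library left out, and, chosen after seeing the data, leaving out the rod-rich or the epithelium-rich libraries, a rod marker covariate and ratios to marker sums.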

Additional observations from a re-analysis of the deposited data

Results flagged for a closer look

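In 36 groups of library values, 2 held a library farther from the rest than the 95% limit of Dixon's gap test allows, which chance alone would give in about 1 of 20 groups. Selp was highest in wild type library 26 without laser, at 177 normalized counts against 56.9 in the next library, a gap of 0.856 of the range of its group. Itgam was highest in Ceacam1-/- laser library 15, which was rich in rod and in surface epithelium markers, at 2040 against 1050 in the next, a gap of 0.628 of the range.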

How the results depend on the processing

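Beside the alternatives that left out no single library, 427 of 471 values of the 9 genes kept their direction and side of the threshold or moved by less than 1 SD, and 826 of 856 did so with 1 library left out. The difference of Madcam1 in wild type mice, given with no test, was 2.31 with a pseudocount of 10, at most 4.09 elsewhere and 3.59 to 4.2 with 1 library left out. In wild type mice Itgb2 (limma, adjusted p 2.78e-10 to 9.43e-05) and Selplg (3.28e-06 to 0.0416) passed in all of them. Over the same settings the adjusted p of limma ran from 1.78e-05 to 0.331 for Vcam1, 0.000108 to 0.0612 for Itgam, 0.000962 to 0.642 for Icam1, 0.000718 to 0.484 for Sele, 5.75e-05 to 0.35 for Selp and 0.0759 to 0.736 for Icam2.

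With laser in wild type mice, the 1053 genes and 4 of the 8 genes other than Madcam1 called became 6505 and 7 with array weights, 2274 and 7 in the fit of wild type libraries alone, 1645 and 7 without the rod-rich libraries, and 491 and 3 without the epithelium-rich ones. With 1 library left out they ran from 479 to 1257 and from 2 to 6, the lowest without wild type library 21. Sele also passed with a pseudocount of 10, and Selp without Ceacam1-/- laser library 14 or 15 or Ceacam1-/- library 28 without laser. In Ceacam1-/- mice the 742 genes became 437 with no filter, 3551 with array weights, 38 in the fit of Ceacam1-/- libraries alone and 2923 without the rod-rich libraries (148 to 2488 with 1 left out, lowest without library 25 and highest without library 23). Genotype without laser gave 1 gene with array weights (0 to 1 with 1 left out). Genotype with laser gave 2 with a mean of at least 50, 297 with array weights, 9 in the fit of all libraries and 2 without the rod-rich libraries, in place of 4 (4 to 61 with 1 left out).

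The cause of the directions that turned was not tested. With laser in Ceacam1-/- mice, Icam2 became 0.08 with array weights, 0.21 without the rod-rich libraries and 0.16 with the rod covariate, and Icam1 ran from −0.17 to 0.38 with 1 library left out. The interaction of Madcam1 became 0.48, 0.48 and 0.25 under the same 3 settings (−0.55 to 0.06 with 1 left out), and that of Sele ran from −0.04 to 0.98. The interaction of Itgam became 0.14 with array weights, that of Icam1 0.07 without the rod-rich libraries and 0.05 with the rod covariate, and that of Vcam1 0.09 without the rod-rich libraries, and that of Selp 0.07 without the epithelium-rich ones. For genotype without laser, Selp became 0.28 and Itgam −0.51 with array weights, Itgam −0.39 without the rod-rich libraries and Icam1 −0.22 with the rod covariate and −0.32 without the epithelium-rich libraries. With 1 library left out, Icam1 ran from −0.13 to 0.33, Itgam from −0.52 to 0.57 and Selp from −0.61 to 0.34. For genotype with laser, array weights gave Icam1 0.08, Icam2 0.31, Vcam1 0.44 and Selplg 0.09. Without the rod-rich libraries the values were 0.28, 0.31, 0.66 and 0.18, and with the rod covariate Icam2 was 0.06 and Vcam1 0.31. Vcam1 ran from −0.30 to 0.17 with 1 library left out.

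No paired analysis was possible because the labels do not say which libraries, if any, share a mouse or a litter. Sequencing depth per library is known only as normalized sums. Madcam1 without laser rests on few reads, so its fold is imprecise.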
